A study of Mus musculus and Acomys cahirinus with 25 samples.

Results

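The Hox genes are 39 homeobox genes that lie in 4 clusters, and they were taken here as every gene symbol made of Hoxa, Hoxb, Hoxc or Hoxd and a number, with the antisense transcripts of the clusters left out. All 39 were found among the 24500 gene symbols counted, 11 in the Hoxa, 10 in the Hoxb, 9 in the Hoxc and 9 in the Hoxd cluster. RNA was sequenced from healing skin of 2 rodents, and from unwounded skin of 1 of them, in 25 libraries. The 13 Mus libraries came from laboratory mice, of which C57BL/6J was the study's primary strain, at post-wound day (PWD) 14, and each held epidermis or dermis separated by hand. The wild-type ones were epidermis from the wound center (n = 2) and wound margin (n = 2), and dermis from the center (n = 5) and margin (n = 2). In the remaining 2, dermis came from the wound center of K14-Cre-Twist1 mice, a cross of a Twist1 conditional null line with a KRT14-cre line, where Cre is driven in keratinocytes, so that the dermal Twist1 level is no check of the deletion. Twist1+/+ mice served as wild-type controls of that cross, and the labels do not say which wild-type libraries came from them. The 12 Acomys libraries came from the spiny mouse Acomys cahirinus, whose whole wound, or unwounded skin at PWD0, was separated with trypsin. Epidermis was taken at PWD0 (n = 1), PWD14 (n = 2), PWD21 (n = 2) and PWD28 (n = 1). Dermis was taken at PWD0 (n = 2), PWD14 (n = 1), PWD21 (n = 2) and PWD28 (n = 1). These days are those of the labels, and a sample list of the study gives slightly different ones for the Acomys wounds. Mice were wounded on the lower back at 4 weeks of age. Acomys were wounded at 2 months, with no site named for them in the wounding methods. Animals of both sexes were used. No source used here says which libraries shared an animal, so p-values measure the spread between these libraries only.

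Hox genes encode transcription factors that give cells along the body axis their regional identity. Within a cluster the genes lie in the order in which they are used from head to tail, and the number of a gene gives its place in that order, so that the genes numbered 9 and above mark the posterior trunk, limbs and tail. Dermal fibroblasts of adult skin keep a Hox code of their site of origin, and Hoxc13 is in addition a regulator of hair keratin genes in the follicle.

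Upstream sequence is shown for 5 members on which the results turn, as the 250 bases before a RefSeq transcription start in GRCm38.p6. None of the 5 stretches overlapped an exon of GENCODE M21. The stretches of Hoxb8 and Hoxd10 lie inside the spans of those genes, before an internal start. That of Hoxd4 lies inside the span of Hoxd3. Hoxd4, Hoxd8 and Hoxd10 were shown because they were lower in epidermis than in dermis of both species, Hoxa9 because it was lower in epidermis in Acomys, and Hoxb8 because it fell in Acomys wound dermis. Each runs 5′ to 3′ along the strand of its gene, and capitals mark matches to TATAAA or GGGCGG, the former read as TTTATA where it lay on the other strand.
Hoxd4 (chr2:74721728-74721977, plus strand): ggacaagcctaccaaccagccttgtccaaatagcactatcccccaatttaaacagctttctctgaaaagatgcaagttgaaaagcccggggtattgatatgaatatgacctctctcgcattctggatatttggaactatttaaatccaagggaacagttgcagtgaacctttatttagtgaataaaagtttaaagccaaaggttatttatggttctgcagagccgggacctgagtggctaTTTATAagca
Hoxd8 (chr2:74704365-74704614, plus strand): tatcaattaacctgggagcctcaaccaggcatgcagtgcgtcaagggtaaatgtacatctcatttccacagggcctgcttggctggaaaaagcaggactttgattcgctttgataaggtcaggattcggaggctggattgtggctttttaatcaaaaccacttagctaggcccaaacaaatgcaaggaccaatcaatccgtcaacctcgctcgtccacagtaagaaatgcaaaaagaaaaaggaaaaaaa
Hoxd10 (chr2:74691641-74691890, plus strand): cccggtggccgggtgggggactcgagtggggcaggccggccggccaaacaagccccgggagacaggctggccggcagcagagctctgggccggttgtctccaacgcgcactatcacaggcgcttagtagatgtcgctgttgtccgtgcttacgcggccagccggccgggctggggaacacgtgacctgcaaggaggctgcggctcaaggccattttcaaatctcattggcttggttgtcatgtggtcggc
Hoxa9 (chr6:52227371-52227620, minus strand): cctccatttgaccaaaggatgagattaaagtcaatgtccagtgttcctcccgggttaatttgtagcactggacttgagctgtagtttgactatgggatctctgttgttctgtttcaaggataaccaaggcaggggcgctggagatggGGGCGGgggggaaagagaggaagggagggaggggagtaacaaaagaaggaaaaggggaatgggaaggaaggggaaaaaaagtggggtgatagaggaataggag
Hoxb8 (chr11:96281655-96281904, plus strand): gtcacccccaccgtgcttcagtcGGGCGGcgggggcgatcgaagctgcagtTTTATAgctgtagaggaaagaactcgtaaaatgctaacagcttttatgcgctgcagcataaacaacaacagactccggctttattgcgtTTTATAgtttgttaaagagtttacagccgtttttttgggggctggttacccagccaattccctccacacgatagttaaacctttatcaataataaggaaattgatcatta

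The TATA box TATAAA was found on either strand 2 times before Hoxb8 and 1 time before Hoxd4, and it was in 12.4% of the 32851 stretches of this length before mouse genes. The GC box GGGCGG was found before Hoxa9 and Hoxb8, against 32.7% of all stretches. The homeodomain palindrome TAATTA and the PBX-HOX site TGATTNAT were found in none of the 5, and were in 4.84% and 2.82% of all stretches. Of the 39 members 22 had at least 1 such stretch in the table used. Among their 24 stretches TAATTA was in 2, TGATTNAT in 2, TATAAA in 4 and GGGCGG in 10. None of the motifs overlapped another in the stretches shown. A match is a description of the letters and not of binding.

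Reads on genes ran from 19413261 to 86532134 in Mus and from 5669760 to 34751956 in Acomys, which was counted on mouse genes. Levels are given as counts per 1000000 reads on genes (CPM) with library sizes scaled by TMM within each species, and 3 counts corresponded to between 0.047 and 0.134 CPM in Mus and between 0.0809 and 0.526 CPM in Acomys. The layers carried their markers. The summed level of 10 keratinocyte genes was 27170 to 280457 CPM in the epidermis libraries, and that of 10 fibroblast genes 58707 to 141578 CPM in dermis. K14-Cre-Twist1 replicate 2 stood apart from the other dermis libraries, with 12075 genes detected, the fewest of all 25, and 28334 CPM of keratinocyte genes against 10.6 to 503 CPM in the 5 wild-type center libraries. It had counts in 20 of the 39 members, the fewest of the 13 Mus libraries. In bulk samples fewer cells of a type and less RNA per cell cannot be told apart. Mus epidermis was sequenced as paired reads and Mus dermis as single reads, so layer and read type cannot be told apart in Mus. Species likewise cannot be told apart from how the tissue was separated, sequenced and mapped.

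Posterior trunk genes up to number 10 were present in this skin and the genes numbered 11 to 13 were mostly near 0. Hoxb13 had no count in any library. Hoxa13, Hoxd12 and Hoxd13, which pattern the ends of limbs and the tail, stayed at or under 3 counts in all 25. Hoxb1, Hoxc12 and Hoxd11 reached at most 6, 10 and 10 counts. These 7 members passed the filter on low counts in no comparison, 32 passed it in at least 1, and 19 in all. A median of at least 1 CPM was reached by 21 members in the epidermis and by 28 members in the dermis of each species.

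**Figure D1:**
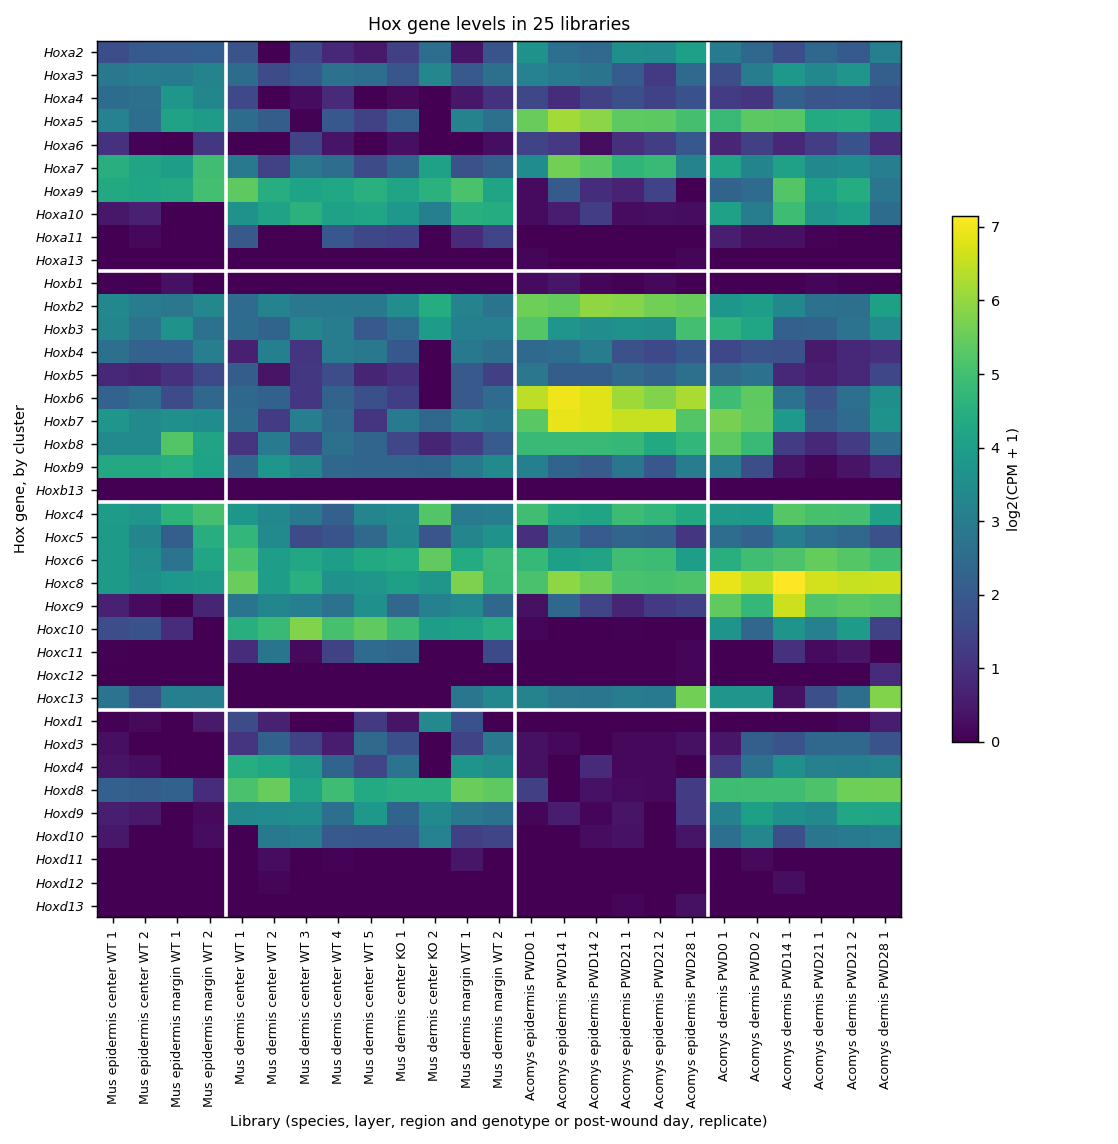
Level of the Hox genes reported by name (vertical axis, by cluster) in the 25 libraries (horizontal axis), as color on a log2(CPM + 1) scale. White lines part the clusters, species and layers. The Hoxd genes are brighter in dermis, and Hoxb6 and Hoxb7 are brighter in Acomys epidermis than in Mus epidermis.

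The members with the highest medians differed between the layers. In Mus epidermis they were Hoxa7 (19.3 CPM), Hoxa9 (19.1), Hoxb9 (18.9), Hoxc4 (18.9), Hoxc8 (13.5) and Hoxb8 (13.4). In the 9 Mus dermis libraries, the 2 K14-Cre-Twist1 ones included, they were Hoxd8 (29.3 CPM), Hoxc10 (27.4), Hoxa9 (20.7), Hoxc6 (20.3), Hoxa10 (16.4) and Hoxc8 (15.7). The 7 wild-type ones gave the same 6 genes, at 17.9 to 32.9 CPM. The mouse wound epidermis thus carried a leading list from the Hoxa, Hoxb and Hoxc clusters, while the dermal list also held a Hoxd gene and 2 genes numbered 10. In Acomys epidermis the leading members were Hoxb7 (92.8 CPM), Hoxb6 (79.9), Hoxb2 (47.3), Hoxa5 (41.9), Hoxc8 (33.9) and Hoxb8 (26.6). In Acomys dermis they were Hoxc8 (98.5 CPM), Hoxc9 (37.9), Hoxc6 (32.7), Hoxd8 (32.3), Hoxa5 (24.1) and Hoxc4 (23.9). Levels per kilobase of mouse exon allow for gene length, but in Acomys not for how well the reads of each gene mapped to mouse. By this measure Hoxb7 led both epidermal lists, with a median of 8.22 CPM per kilobase in Mus and 71.9 in Acomys. Hoxc10 led in Mus dermis at 14.3 and Hoxc8 in Acomys dermis at 52.7 CPM per kilobase.

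Whole clusters were weighted differently in the layers. The 9 Hoxd genes made up 0.607% to 2.42% of the summed Hox CPM in Mus epidermis and 17.7% to 31.6% in Mus dermis, or 19.3% to 31.6% in its wild-type libraries. In Acomys they made up 0.0817% to 0.845% in epidermis and 8.61% to 19.8% in dermis. No epidermis library reached the share of any dermis library in either species. The Hoxb cluster held 54.2% to 61.6% of the sum in Acomys epidermis and 27.1% to 41.3% in Mus epidermis. Genes numbered 9 to 13 held 21.2% to 25.2% of the sum in Mus epidermis, 27.8% to 52.9% in Mus dermis (31.0% to 52.9% in the wild type), 2.51% to 14.2% in Acomys epidermis and 17.3% to 33.4% in Acomys dermis. The highest of these Acomys epidermis shares was at PWD28, where Hoxc13 was high.

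**Figure D2:**
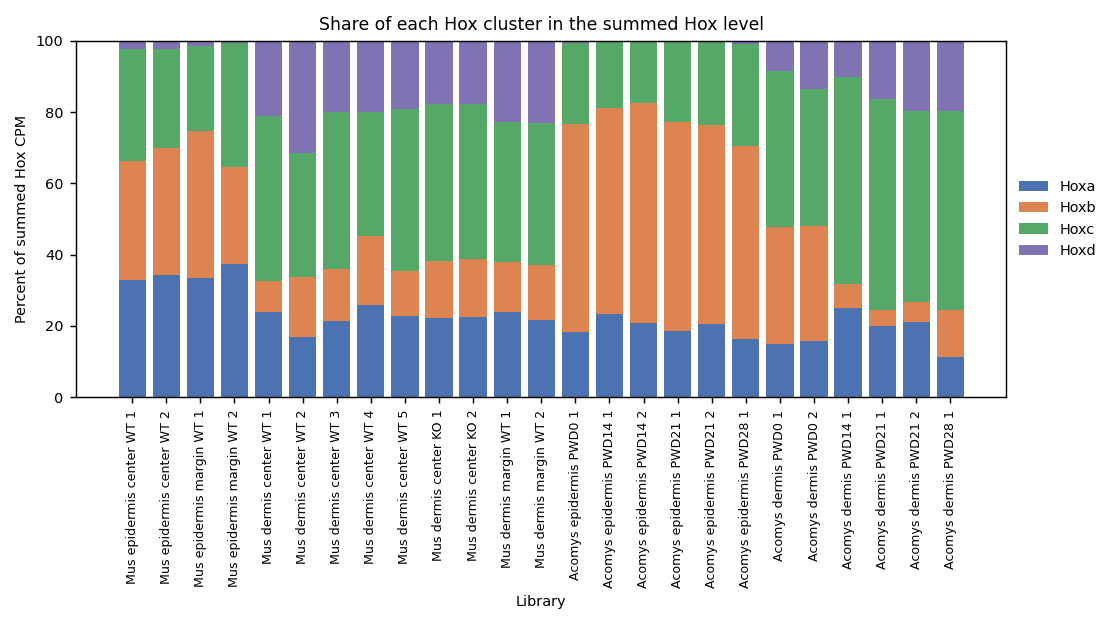
Share of the Hoxa, Hoxb, Hoxc and Hoxd clusters in the summed Hox CPM (vertical axis, percent) in each library (horizontal axis). The Hoxd share runs from 8.61% to 31.6% in dermis and stays at or below 2.42% in epidermis. The Hoxb share of Acomys dermis is 32.4% to 32.8% at PWD0 and 4.44% to 13.2% afterwards.

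Epidermis was compared with dermis in the mouse margin (2 against 2 libraries), the mouse center (2 against 5) and Acomys (6 against 6, with day as a covariate), to ask which Hox genes separate the layers. No library was used in more than 1 of these comparisons. The mouse center fit pooled dermis replicates 1 and 2 with replicates 3 to 5, which later comparisons keep apart, and held no term for this division. Summed keratinocyte genes were at 503 and 314 CPM in replicates 1 and 2 and at 10.6 to 52.2 CPM in replicates 3 to 5. A member was called where the false discovery rate (FDR) of edgeR's quasi-likelihood test was under 0.05. In the mouse margin 14 of the 29 members tested were called, 10 of them lower and 4 higher in epidermis, where 47.7% of all genes were called. In the mouse center 13 of 32 were called, 4 higher and 9 lower, against 51.8% of all genes. With center dermis replicates 1 and 2 only, Hoxa4 (FDR = 0.131), Hoxb9 (0.117) and Hoxd10 (0.146) lost their center calls. In Acomys 23 of 29 were called, 11 higher and 12 lower, against 54.0% of all genes. The median log2 fold change over the members tested was 0.01, 0.15 and -0.02, and that over all genes -0.16, -0.08 and 0.01. On library sizes without TMM the median of all genes was -0.98 in the margin and -0.80 in the center, and 3 members were higher and 11 lower in the margin and 2 higher and 13 lower in the center. In Acomys it was -0.11, with 10 members higher and 12 lower. Of the 28 members tested in all 3 comparisons, 8 were lower in epidermis in each and 1 was higher in each, against 15.9% and 13.3% of the 13426 genes tested in all 3. None was called in opposite directions in the 2 species, a count that was not made over all genes.

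**Figure D3:**
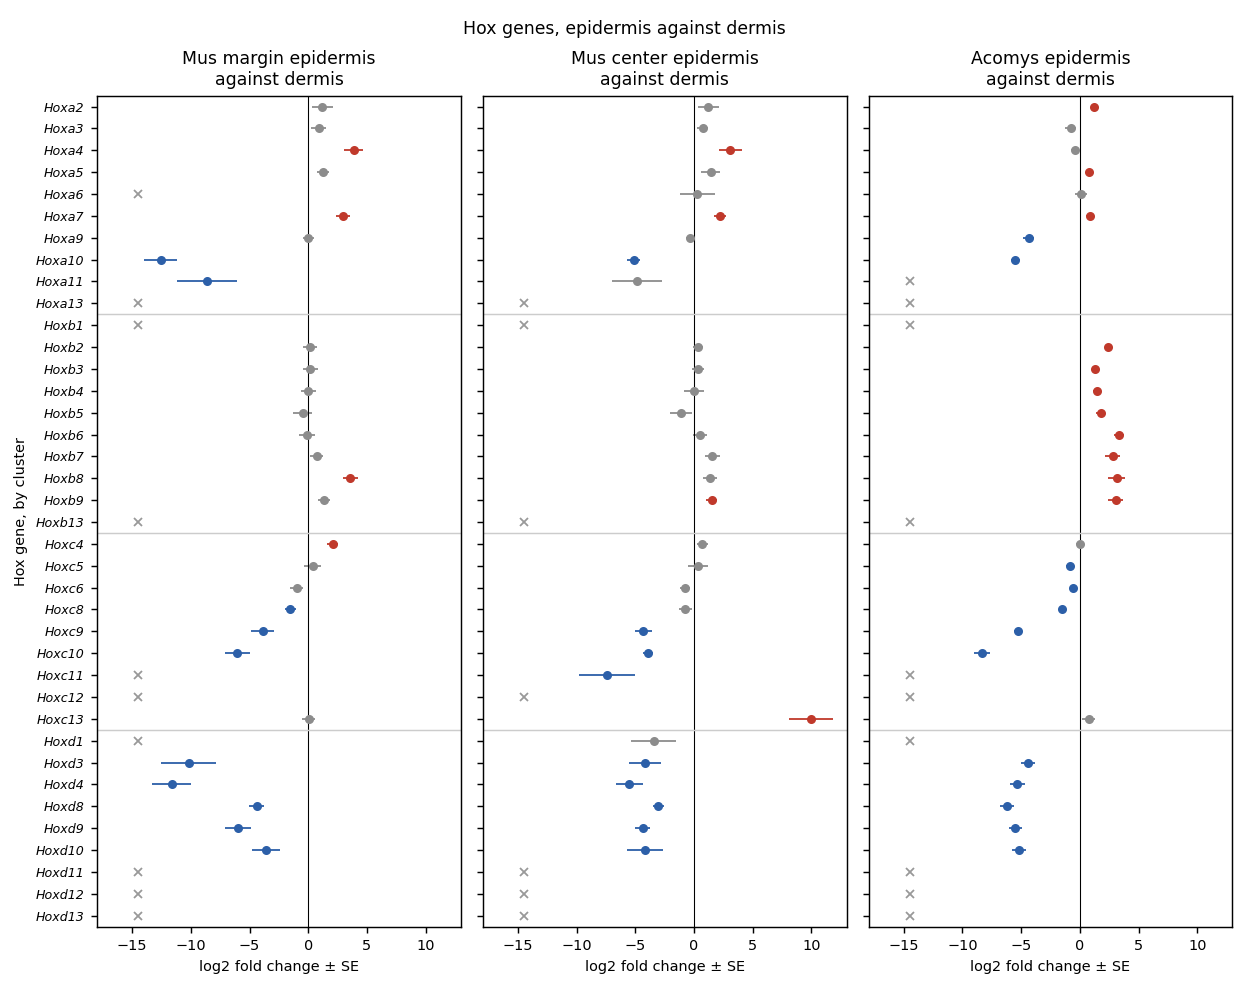
Log2 fold change of epidermis against dermis ± SE (horizontal axis) for each Hox gene reported by name (vertical axis) in the mouse margin, the mouse center and Acomys. Red and blue points passed an FDR of 0.05 as higher and lower in epidermis, gray points did not, and crosses at the left edge mark members that were not tested. All Hoxd points lie left of 0 and the 8 tested Hoxb points of Acomys lie right of it.

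The 8 members lower in epidermis in all 3 comparisons were Hoxa10, Hoxc9, Hoxc10, Hoxd3, Hoxd4, Hoxd8, Hoxd9 and Hoxd10. With DESeq2 there were 6, without Hoxc10 and Hoxd10, and with the older estimate that edgeR 3 used there were 4, Hoxa10, Hoxd4, Hoxd8 and Hoxd9. With at least 10 counts in every library 12 members were tested in all 3 comparisons, and 0 were lower in each. That filter leaves out members near 0 in epidermis, so it cannot test them. The center call of Hoxd10 was also lost with center dermis replicates 1 and 2 only (FDR = 0.146). Hoxd8, a trunk gene in the middle of its cluster, was at 3.53 and 3.33 CPM in Mus center epidermis and at 3.61 and 0.861 CPM in margin epidermis. In the wild-type center dermis it was at 32.9, 43.5, 17.2, 29.3 and 19.7 CPM and in margin dermis at 44.8 and 40.3 CPM. The layers did not overlap. The log2 fold change was -4.41 ± 0.65 (SE, FDR = 0.000328) in the margin and -3.05 ± 0.46 (FDR = 0.000507) in the center. In Acomys Hoxd8 ran from 0 to 1.58 CPM (median 0.211, n = 6) in epidermis and from 29.7 to 47.6 CPM (median 32.3, n = 6) in dermis, a log2 fold change of -6.17 ± 0.59 (FDR = 5.76e-06).

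Hoxa10, which patterns the lumbar region and the upper segment of the limbs, had no count in either margin epidermis library. Margin dermis held 21.9 and 20.7 CPM. The dermis mean was at least 176-fold higher, set against the highest epidermis floor of 3 counts per library. Every fold given as at least is such a ratio of a mean to a floor. Center epidermis held 0.38 and 0.569 CPM and the 5 center dermis libraries 11.7 to 23.0 CPM, a log2 fold change of -5.16 ± 0.53 (FDR = 3.87e-05). Acomys epidermis held 0.166 to 1.44 CPM and dermis 4.75 to 29.3 CPM (-5.51 ± 0.39, FDR = 2.76e-07), the lowest FDR of all members in that comparison. Every dermis library was thus above every epidermis library of its species.

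Hoxc10, also a lumbar and hindlimb gene, was at 2.20, 2.48, 0.883 and 0 CPM in the 4 Mus epidermis libraries and at 15.1 to 54.0 CPM in the 9 Mus dermis libraries. In Acomys epidermis it reached at most 0.0832 CPM, with 4 of 6 libraries at 0. Acomys dermis held 1.61 to 14.2 CPM, with a mean at least 24.8-fold above the epidermis floor. Hoxc9, a trunk gene, was low in the same layer, with at most 0.658 CPM in Mus and 4.25 CPM in Acomys epidermis and at least 4.15 and 26.1 CPM in dermis. Its log2 fold changes were -3.90 ± 0.98 (margin, FDR = 0.00792), -4.34 ± 0.73 (center, FDR = 0.000735) and -5.27 ± 0.37 (Acomys, FDR = 9.23e-07). Without mouse margin dermis replicate 1 the margin FDR was 0.0870.

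The remaining Hoxd genes went the same way at lower levels. Hoxd4 had no count in margin epidermis against 12 and 10.2 CPM in margin dermis, a dermis mean at least 92.1-fold higher. In the center its log2 fold change was -5.51 ± 1.19 (FDR = 0.0030). Hoxd9 ran from 0 to 0.507 CPM in Mus epidermis and from 3.94 to 13.1 CPM in Mus dermis, and from 0 to 1.26 CPM and 7.90 to 18.5 CPM in Acomys. Hoxd3 reached at most 0.252 CPM and Hoxd10 at most 0.38 CPM in any epidermis library of either species. Their dermis levels were 0 to 6.32 and 0 to 7.97 CPM in Mus and 0.351 to 4.23 and 2.38 to 8.82 CPM in Acomys. In the mouse center both calls were lost without either epidermis library, with FDRs from 0.0991 to 0.195, and in the margin the call of Hoxd10 was lost without any 1 of the 4 libraries (0.104 to 0.230) and that of Hoxd3 without dermis replicate 2 (0.0793). The spans of Hoxd3 and Hoxd4 overlap, as do those of Hoxd10 and Hoxd11 and of Hoxb3 and Hoxb4. That of Hoxa3 overlaps Hoxa4, Hoxa5 and Hoxa6. Reads on overlapping spans can be ambiguous and would then not be counted, so the levels of these genes are uncertain.

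Other members were lower in epidermis in only 1 or 2 of the comparisons, and whether the comparisons differed was not tested. Hoxc8, a thoracic gene, was called in the mouse margin (-1.53 ± 0.44, FDR = 0.0165) and in Acomys (-1.53 ± 0.15, FDR = 1.02e-05), and had an FDR of 0.266 in the mouse center. Without margin dermis replicate 1 the margin FDR of Hoxc8 was 0.338. Hoxa11 was called in the margin (FDR = 0.0209). There it had no count in epidermis and 0.813 and 1.84 CPM in dermis, a dermis mean at least 11-fold higher. Hoxc11 was called in the center (FDR = 0.0309). There it was at most 0.0211 CPM in epidermis and 0.125 to 5.91 CPM in dermis, with a dermis mean at least 34.2-fold above the epidermis floor. Neither call held with every library left out in turn, with FDRs up to 0.239 for Hoxa11 and 0.146 for Hoxc11. Hoxc5 (-0.86 ± 0.32, FDR = 0.039) and Hoxc6 (-0.59 ± 0.20, FDR = 0.0266) were called in Acomys, and lost the call without 1 library with FDRs up to 0.0963 and 0.124.

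Hoxa7, a thoracic gene, was the 1 member higher in epidermis in all 3 comparisons. It was at 21.5 and 17.2 CPM in Mus center epidermis and 15.1 and 29.8 CPM in margin epidermis, above the 1.65 to 6.35 CPM of the 7 wild-type dermis libraries. The 2 K14-Cre-Twist1 dermis libraries held 4.03 CPM and, in replicate 2, 15.9 CPM. The log2 fold change was 2.95 ± 0.59 (FDR = 0.00227) in the margin and 2.20 ± 0.52 (FDR = 0.00606, and 0.0621 without epidermis replicate 1) in the center. In Acomys the layers overlapped, at 8.22 to 48.4 CPM in epidermis and 7.32 to 17.0 CPM in dermis, and the fold change was smaller at 0.83 ± 0.32 (FDR = 0.0468). That call was lost with DESeq2 (FDR = 0.0550), with RLE scaling (0.0785) and on library size alone (0.0544), so under those settings no member was higher in epidermis in all 3 comparisons.

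Hoxa4 was higher in mouse epidermis in the margin (3.88 ± 0.81, FDR = 0.0029) and center (3.09 ± 1.01, FDR = 0.0231), at 4.71 to 12.7 CPM against at most 1.97 CPM in dermis. In Acomys its fold change was -0.42 ± 0.33 (FDR = 0.314). In the center its call was lost without epidermis replicate 1 or 2 (FDR = 0.0716 and 0.0829) and with DESeq2 (0.153). Hoxb8 was called in the margin (36.4 and 17.1 CPM in epidermis against 1.41 and 3.13 CPM in dermis, 3.59 ± 0.65, FDR = 0.00127). Hoxc4 was called there too (2.06 ± 0.46, FDR = 0.00445, and 0.0583 on library size alone), and Hoxb9 in the center (1.49 ± 0.49, FDR = 0.0301). The call of Hoxb9 was lost on library size alone (FDR = 0.236), without epidermis replicate 1 or 2 (0.138 and 0.141) and without dermis replicate 1, 4 or 5 (0.0509 to 0.0575). In mouse skin 1 of 8 tested Hoxb genes was therefore called in each region. The center calls of Hoxa4 and Hoxb9 were also lost with center dermis replicates 1 and 2 only (FDR = 0.131 and 0.117).

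In Acomys all 8 tested Hoxb genes, Hoxb2 to Hoxb9, were higher in epidermis. Hoxb6 ran from 54.4 to 123 CPM (median 79.9) in epidermis and from 2.54 to 40.4 CPM (median 8.05) in dermis, without overlap, a log2 fold change of 3.33 ± 0.46 (FDR = 0.000111). Hoxb2 ran from 43.3 to 61.5 CPM in epidermis and from 5.28 to 15.9 CPM in dermis (2.43 ± 0.29, FDR = 3.96e-05). For Hoxb3, Hoxb4, Hoxb5, Hoxb7, Hoxb8 and Hoxb9 the layers overlapped, and the dermis libraries that reached into the epidermal range included at least 1 from unwounded skin. Without the day term 4 of the 8 were called, Hoxb2, Hoxb4, Hoxb6 and Hoxb7, and at PWD21 alone all 8 were, where 43.0% and 62.9% of all genes were called. Hoxa2 (1.21 ± 0.23, FDR = 0.00104) and Hoxa5 (0.82 ± 0.18, FDR = 0.00226) were also higher in Acomys epidermis, and without the day term both calls were lost (FDR = 0.0568 and 0.0526).

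Hoxa9 was not called by layer in the mouse and was lower in epidermis in Acomys. It was at 17.9 to 31.1 CPM in Mus epidermis and 16.6 to 40.2 CPM in Mus dermis, with log2 fold changes of 0.01 ± 0.46 (FDR = 0.984) in the margin and -0.34 ± 0.38 (FDR = 0.473) in the center. In Acomys epidermis it was at 0 to 3.10 CPM (median 0.77) and in dermis at 3.86 to 36.6 CPM (median 10.7), a log2 fold change of -4.35 ± 0.46 (FDR = 1.08e-05). Hoxb6, at 54.4 to 123 CPM in Acomys epidermis, was at 2.17 to 4.94 CPM in Mus epidermis. These values of the 2 species stand side by side and were not tested.

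Acomys wound dermis was compared with unwounded dermis (PWD21 against PWD0, 2 against 2 libraries) to ask whether the Hox levels of new dermis match those before wounding. Of 29 members tested 11 were called, 3 higher and 8 lower in the wound, against 26.2% of all genes. Their median log2 fold change was 0.03, the same as that of all genes. Among the 8 that fell, 7 were Hoxb genes, and the eighth was Hoxc13.

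Hoxb8 was at 40.4 and 28.0 CPM in the 2 PWD0 dermis libraries, 1.35 CPM at PWD14, 0.766 and 1.43 CPM at PWD21 and 4.83 CPM at PWD28. Hoxb8 fell by 5.02 ± 0.47 on the log2 scale from PWD0 to PWD21 (FDR = 0.000392). Hoxb7 was at 50.4 and 41.0 CPM at PWD0, 13.4 CPM at PWD14, 3.35 and 4.69 CPM at PWD21 and 11.4 CPM at PWD28 (-3.58 ± 0.36, FDR = 0.000498). All 4 wound dermis libraries lay below both unwounded ones for each of these genes.

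Hoxb6 went from 29.3 and 40.4 CPM at PWD0 to 2.54 and 5.12 CPM at PWD21 (-3.25 ± 0.43, FDR = 0.00155). Hoxb3 (-2.20 ± 0.39, FDR = 0.00576), Hoxb5 (-3.06 ± 0.55, FDR = 0.00602), Hoxb9 (-4.52 ± 0.85, FDR = 0.00703) and Hoxb2 (-1.44 ± 0.37, FDR = 0.0232) fell as well. The last tested Hoxb gene, Hoxb4, went by -1.92 ± 0.66 on the log2 scale (FDR = 0.063). Without PWD21 replicate 1 the test called 3 of these Hoxb genes, Hoxb6, Hoxb7 and Hoxb8, and without PWD21 replicate 2 it called 5, the same 3 with Hoxb3 and Hoxb9, where 9.64% and 9.25% of all genes were called. Hoxb2 at PWD28, at 15.9 CPM, was above both unwounded libraries. The days PWD14 and PWD28 have 1 dermis library each and entered no test of day.

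**Figure D4:**
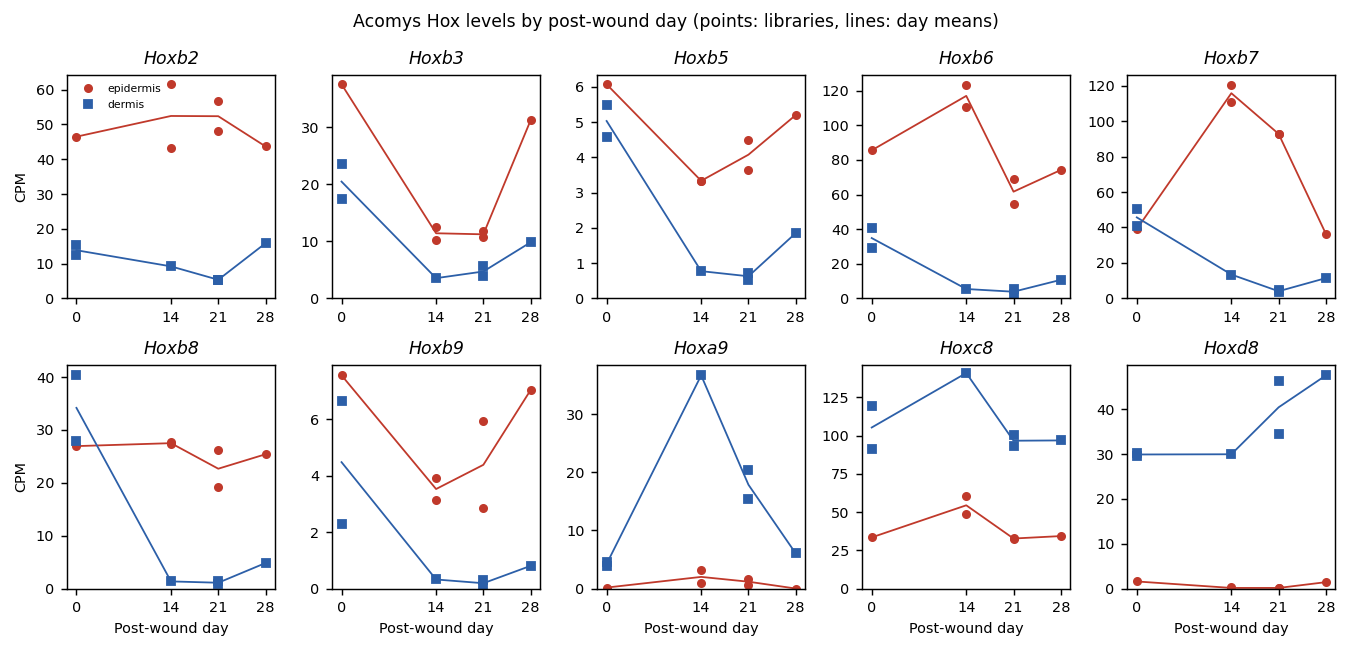
Level in CPM (vertical axis) of 10 Hox genes in Acomys epidermis (red circles) and dermis (blue squares) by post-wound day (horizontal axis). Points are libraries and lines join the means of each day. Dermal Hoxb5 to Hoxb9 are highest at PWD0, while dermal Hoxa9 is highest in the PWD14 library at 36.6 CPM.

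Keratinocyte markers moved with the Hoxb genes in these libraries. Of the 10 keratinocyte genes, all tested, 9 fell and none rose from PWD0 to PWD21 (median log2 fold change -2.39), and their summed level was 3590.5 to 5506 CPM at PWD0, 1801 CPM at PWD14, 464 to 914 CPM at PWD21 and 1529.9 CPM at PWD28, with no gene of the list at 0. In unwounded skin, Hoxb7 and Hoxb8 in dermis stood at 105% to 129% and at 104% to 149.8% of their epidermal level. Krt5 and Krt14, keratins of basal keratinocytes, stood at 21.4% to 41.6% and 26.8% to 34.6%, and Krt10, a keratin of upper layers, at 2.39% to 2.52%. The range over the 8 Hoxb genes was 26.8% to 149.8%, and over the 10 keratinocyte genes 1.63% to 209.7%, the top of which was Dsg3. The summed level of hair shaft genes was 88.8 CPM in 1 PWD0 dermis library and 9333 CPM in the other, and 699 to 978 CPM at PWD21, where 1 of the 11 tested fell. Of 7 tested skeletal muscle genes 4 fell and none rose, with a sum of 202 to 425 CPM at PWD0 and 97.7 to 137 CPM at PWD21, and 3 of 5 endothelial genes rose and none fell, from 70.0 to 126 CPM up to 257 to 262 CPM in sum. In this comparison 26.2% of all genes were called in either direction. The part of these cell types in the fall of the Hoxb genes was not tested.

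Hoxa9 and Hoxc4 rose in wound dermis. Hoxa9, a posterior trunk gene, was at 3.86 and 4.60 CPM at PWD0, 36.6 CPM at PWD14, 15.4 and 20.3 CPM at PWD21 and 6.04 CPM at PWD28 (log2 fold change 2.0 ± 0.38, FDR = 0.0073). Hoxc4 was at 13.7 and 12.9 CPM at PWD0 and 32.8 and 31.6 CPM at PWD21 (1.20 ± 0.30, FDR = 0.0223). Without PWD21 replicate 2 neither was called (FDR = 0.0743 and 0.104), and without PWD21 replicate 1 Hoxa9 was and Hoxc4 was not (FDR = 0.110). Fibroblast genes stood at 58707 to 99303 CPM at PWD0 and 105046 to 141578 CPM at PWD21. Of these genes 3 of 10 rose, against 26.2% of all genes called either way. The part of fibroblasts in the rises of Hoxa9 and Hoxc4 was not tested. None of the 5 tested Hoxd genes was called, and Hoxd8 was at 29.7 and 30.2 CPM at PWD0 and at 34.5 and 46.4 CPM at PWD21 (FDR = 0.387).

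Wound epidermis of Acomys was compared between PWD14 and PWD21 (2 against 2 libraries). Of 22 members tested 9 were called, 7 higher and 2 lower at PWD14, against 46.6% of all genes. Library size alone moved the median of all genes from -0.04 to -0.59 on the log2 scale, and under it 4 members were called, all lower at PWD14, where 54.7% of all genes were called. Hoxb6 was at 123 and 111 CPM at PWD14 and 69.0 and 54.4 CPM at PWD21 (0.96 ± 0.18, FDR = 0.00159, and 0.41 on library size alone, FDR = 0.0767). Hoxc8, Hoxa5 and Hoxa7 were higher at PWD14 by 0.72 to 0.80, Hoxb4 by 1.48, Hoxa3 by 1.39 and Hoxc9 by 1.71 on the log2 scale. Hair shaft genes were lower at PWD14 in 11 of 11, at 19.5 to 29.2 CPM in sum against 314 to 499 CPM at PWD21, and their part in the Hox values was not tested. On library size alone none of the 7 higher members was called, and their log2 fold changes were 0.17 to 1.17.

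Hoxa2 and Hoxc6 were lower at PWD14 under either scaling. Hoxa2, a gene of the hindbrain region, was at 5.06 and 4.42 CPM at PWD14 and 10.8 and 9.92 CPM at PWD21 (-1.11 ± 0.31, FDR = 0.0135). Hoxc6 was at 15.4 and 17.0 CPM and at 29.8 and 29.0 CPM (-0.82 ± 0.22, FDR = 0.00971). Both calls were lost without either PWD21 library, with log2 fold changes of -1.05 and -1.17 for Hoxa2 and -0.82 and -0.85 for Hoxc6. The number of all genes called fell in these fits too. Relative to the epidermis at PWD0, with 1 library, Hoxb7 was higher at both days (39.1 CPM at PWD0, 92.8 to 120 CPM afterwards) and at 36.4 CPM at PWD28, and these values were not tested.

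Hoxc13 followed another pattern from the rest of its cluster. It had no count in any of the 7 Mus center dermis libraries, 5.98 and 9.03 CPM in margin dermis, and 2.4 to 7.55 CPM in Mus epidermis. In the center it was at least 29.6-fold higher in epidermis than in dermis (FDR = 0.00823, and 0.0665 without epidermis replicate 1), and in the margin it was not called (log2 fold change 0.02 ± 0.57, FDR = 0.982). Within dermis the margin was at least 59.3-fold higher than the 2 center libraries it was compared with, with an FDR of 0.115. With all 5 wild-type center dermis libraries in place of these 2 the FDR was 0.0361, and both fits rested on the same 2 margin libraries. Keratinocyte genes were higher in margin dermis as well, with 5 of 10 called where 0.850% of all genes were. Their sum was 1500 to 3015 CPM, against at most 503 CPM in the 5 wild-type center dermis libraries.

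In Acomys Hoxc13 was at 6.04 to 8.15 CPM in epidermis up to PWD21 and at 48.0 CPM at PWD28. In dermis it was at 12.5 and 12.3 CPM at PWD0, 0.257 CPM at PWD14, 2.38 and 4.96 CPM at PWD21 and 54.5 CPM at PWD28. From PWD0 to PWD21 it fell by 1.82 ± 0.46 on the log2 scale (FDR = 0.0225, and 0.145 without PWD21 replicate 1). Its lowest Acomys dermis level was in the PWD14 wound, and the single PWD28 library of each layer was the highest.

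Hair shaft genes, of which 11 of the 12 listed were found, were low in the center dermis and high at PWD28 like Hoxc13. The list held Krt71, Msx2, Foxn1 and Dsg4 beside hair keratins, so it was not made of shaft keratins alone. Their summed level was 0 to 1.30 CPM in wild-type and 0 to 7.25 CPM in K14-Cre-Twist1 center dermis, with 8 and 10 of the 11 at 0 in the whole group, and 224 to 273 CPM in margin dermis with none at 0. In Acomys it was 19.5 to 29.2 CPM at PWD14, 314 to 499 CPM at PWD21 and 9516 CPM at PWD28 in epidermis, and 33.4, 699 to 978 and 14714 CPM in dermis. In Mus epidermis, where Hoxc13 was present, the sum was only 15.1 to 69.2 CPM. In its center libraries 5 of the 11, Krt31, Krt33a, Krt34, Krt35 and Dsg4, had no count. In the PWD0 dermis libraries Hoxc13 differed by little while the sum was 88.8 and 9333 CPM. The part of hair follicle cells and other keratinocytes in the Hoxc13 values was not tested.

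**Figure D5:**
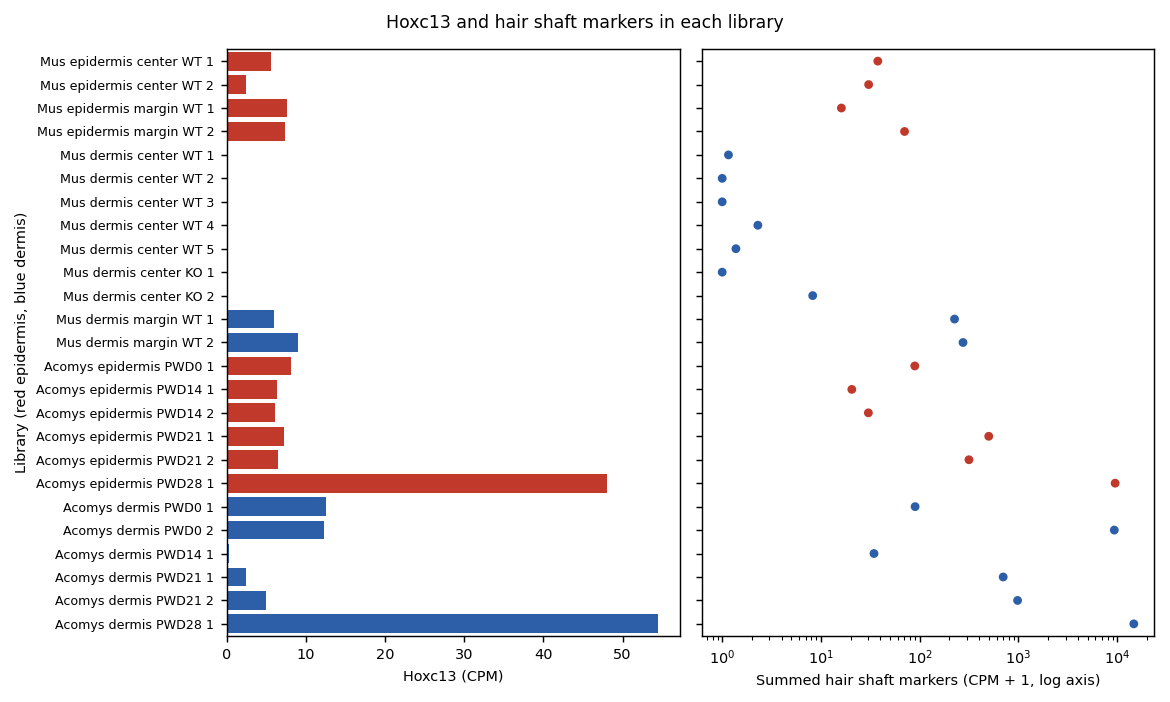
Hoxc13 in CPM (left) and the summed CPM of 11 hair shaft genes plus 1 on a log axis (right) in each library (vertical axis), with epidermis in red and dermis in blue. The 7 Mus center dermis libraries have no Hoxc13 count and at most 7.25 CPM of hair shaft genes. Both PWD28 libraries are the highest in Hoxc13, at 48.0 and 54.5 CPM.

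Center and margin of the mouse wound were compared in each layer to ask whether Hox levels mark the place where new follicles would form. In epidermis none of 26 members tested was called by edgeR's quasi-likelihood test, where 1.24% of all genes were called. At an unadjusted p under 0.05 there were 6, against 23.5% of all genes, and DESeq2 called 3, against 9.14% of all genes, so neither count of members stood far from that of all genes. The 6 were Hoxc4, Hoxa5, Hoxb8, Hoxa4, Hoxa10 and Hoxc10. Hoxc4 was at 14.0 and 12.2 CPM in the center and 23.7 and 31.7 CPM in the margin (log2 fold change -1.24 ± 0.29, FDR = 0.102). Hoxa5 was at 8.04 and 5.04 CPM in the center and 16.5 and 14.5 CPM in the margin (-1.38 ± 0.37, FDR = 0.125), and Hoxb8 at 9.65 and 9.67 CPM against 36.4 and 17.1 CPM (-1.60 ± 0.45, FDR = 0.133). These 3 were the genes that DESeq2 called. Among the members with the highest levels, Hoxa9 (FDR = 0.317), Hoxa7 (0.552), Hoxb9 (0.749) and Hoxc8 (0.623) were not called either. Fibroblast genes were at 5993 to 7254 CPM in center and 899 to 2799.6 CPM in margin epidermis, with none at 0, and their part in these values was not tested. Without margin replicate 1 the test called 10 members and without margin replicate 2 it called 8, each time against a single margin library and where 36.4% and 50.9% of all genes were called.

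In dermis none of 31 members tested was called by edgeR's test, where 0.850% of all genes were called, 2 had an unadjusted p under 0.05 against 15.8% of all genes, and DESeq2 called 1 against 4.40%. Hoxc13 was 1 of these 2. The other 3 wild-type center libraries were left out of this comparison, following the library names in the study's heatmaps, which show them with the K14-Cre-Twist1 dermis. Hoxd8, Hoxc8, Hoxa9, Hoxc6, Hoxc10 and Hoxa10, the members with the highest levels, had FDRs from 0.534 (Hoxa10) to 0.982 (Hoxc6).

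Whether the center against margin difference was itself different in the 2 layers was tested by the interaction of layer and region. None of 32 members passed in edgeR's test, where 3.48% of all genes did. At an unadjusted p under 0.05 there were 4, Hoxc13, Hoxc4 and Hoxa10 among them, and DESeq2 called the same 4, against 16.0% and 6.53% of all genes. The lowest FDR was that of Hoxc13 (log2 difference 10.13 ± 2.67, FDR = 0.0781).

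K14-Cre-Twist1 center dermis was compared with wild-type center dermis replicates 3 to 5. None of 29 members tested was called by edgeR's test, where 0.0565% of all genes were called. At an unadjusted p under 0.05 there were 2, against 11.5% of all genes, and DESeq2 called 0, against 3.26%. Hoxc4 was at 9.81 and 37.0 CPM in the K14-Cre-Twist1 libraries and 6.41, 3.58 and 8.47 CPM in the wild type (1.91 ± 0.69, FDR = 0.366). Hoxc10 was at 28.5 and 15.1 CPM against 54.0, 32.5 and 41.2 CPM (-0.97 ± 0.41, FDR = 0.423). For both genes replicate 2, the library with 28334 CPM of keratinocyte genes, lay farther from the wild type. Without it no member was called, and without replicate 1 there were 5 (Hoxc4, Hoxd1, Hoxc10, Hoxc6 and Hoxb2), from that single library and where 22.5% of all genes were called. Hoxd8 (21.9 and 21.3 CPM) and Hoxa9 (17.2 and 22.9 CPM) lay within or near the wild-type ranges of 17.2 to 29.3 and 16.6 to 22.3 CPM.

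Partners and regulators of Hox genes were read from lists of their own. Among 9 PBX, MEIS and PKNOX genes, whose proteins bind DNA with Hox proteins, 1 was higher and 6 lower in Acomys epidermis than dermis. In the mouse center 1 was higher and 5 lower, and in the margin 1 higher and 2 lower. All 9 were tested, and the shares of all genes called were 54.0%, 51.8% and 47.7%. Meis3 was 1 of those lower in the mouse, at a mean of 0.219 CPM in margin epidermis and 13.3 CPM in margin dermis (-5.43 ± 0.89, FDR = 0.000562). Meis2 rose in Acomys dermis from a mean of 17.9 CPM at PWD0 to 55.8 CPM at PWD21 (1.56 ± 0.28, FDR = 0.0060). It was the 1 of the 9 called there, against 26.2% of all genes.

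Of 16 Polycomb and Trithorax genes, which keep Hox clusters silent or active, 6 were higher and 3 lower in Acomys epidermis than dermis, 3 higher and 2 lower in the mouse center and 4 higher and 1 lower in the margin. All 16 were tested, and the shares of all genes called were 54.0%, 51.8% and 47.7%. Among 12 genes of retinoic acid synthesis, breakdown and response, a pathway that acts upstream of Hox genes in the embryo, 2 were higher and 5 lower in Acomys epidermis than dermis, 5 higher and 4 lower in the mouse center and 3 higher and 5 lower in the margin. Of these genes 12 were tested in Acomys and 11 in each mouse comparison, against the same shares of all genes. Crabp1, a retinoic acid binding protein, was at a mean of 14.8 CPM in mouse margin epidermis and 214 CPM in margin dermis (-3.84 ± 0.40, FDR = 3.99e-05). Aldh1a3, an enzyme of retinoic acid synthesis, was higher in the mouse center than margin epidermis (277 against 21.2 CPM, 3.54 ± 0.42, FDR = 0.0369). With the older edgeR 3 estimate no gene was called in that mouse comparison. In Acomys dermis Aldh1a3 rose from 4.65 to 35.9 CPM (2.87 ± 0.42, FDR = 0.00252).

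Of 25 other homeobox and T-box factors of body position, 3 were higher and 13 lower in Acomys epidermis of 23 tested, 8 higher and 9 lower in the mouse center of 20, and 5 higher and 8 lower in the margin of 18, against the same shares of all genes. En1, a marker of dorsal skin fibroblasts, was at a mean of 0.215 CPM in Acomys epidermis and 49.7 CPM in dermis (-8.27 ± 0.38, FDR = 8.08e-09). In Acomys dermis 10 of 20 tested rose and 1 fell from PWD0 to PWD21, against 26.2% of all genes called either way, Tbx18 from a mean of 1.89 to 24.1 CPM (3.57 ± 0.44, FDR = 0.00125) and Tbx15 from 57.2 to 179 CPM. Dlx5 fell from 10.6 to 0.949 CPM.

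Of 11 noncoding RNAs of the Hox clusters 10 were found, and at most 5 passed the filter in any comparison. Hoxb5os, the antisense partner of Hoxb5, fell with the Hoxb genes in Acomys dermis, from a mean of 1.58 CPM at PWD0 to 0.0135 CPM at PWD21 (-6.20 ± 1.16, FDR = 0.00486). The Acomys libraries did not keep strand, so reads of Hoxb5 and Hoxb5os cannot be told apart where they overlap. Hotair, which lies in the Hoxc cluster, was at a mean of 1.25 CPM in mouse center dermis with no count in center epidermis (FDR = 0.134).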

How the data were processed

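The authors deposited 1 gene count table per library, and these files held whole-number counts that were used as deposited. By the submitters' processing notes and the study's methods reads were aligned to mm10 with STAR (2.4.1d in the notes) and counted with HTSeq 0.6.0, and Acomys reads were aligned to the mouse genome too. The strand option of the counting is not given in the sources used here. Lines for reads with no gene, ambiguous reads or low alignment quality were left out of library sizes. They came beside the 24500 symbols, and reads of low alignment quality were 23.3% to 34.4% of all reads tallied in Mus and 38.0% to 60.5% in Acomys. Libraries were grouped by the labels (species, layer, region, genotype and day).

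Each comparison was fitted on all genes with edgeR 4.0.16 (R 4.3.3): filterByExpr, TMM scaling, the quasi-likelihood fit and test, and Benjamini-Hochberg adjustment over all genes tested, with 0.05 as the threshold. The SE of a fold change was obtained from it and the F statistic. The floor of detection was 3 counts per library. A fold given as at least is the mean CPM of the higher group over the highest floor of the lower group. The floor covers counting error only, while the SE also carries the spread between libraries as estimated in the fit. The tests were checked on simulated data with known changes. The members, gene lists and comparisons were chosen with earlier results of these data known. Center dermis was set against margin with wild-type replicates 1 and 2, and against K14-Cre-Twist1 with replicates 3 to 5, following the library names in the study's heatmaps.

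Named with values were the called members (up to 12 per comparison, and in the text also the rest of the called ones), the 6 highest where fewer than 6 passed, and up to 3 genes of each other list per comparison. Members named for an unadjusted p were picked after their values were seen. The values of some genes that entered the fits, counts and sums are not reported here. Alternatives were RLE scaling, no filter or at least 10 counts in every library, DESeq2 1.42.0, other sets of libraries in the fit, no day term, each library left out, and, added after seeing the data, library size alone and the edgeR 3 estimate. Upstream sequences came from RefSeq tables of GRCm38.p6.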

Additional observations from a re-analysis of the deposited data

Results flagged for a closer look

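Hoxa9 in the wild-type center dermis of the mouse had 1 library far from the others, replicate 1 at 40.2 CPM, where the other 4 lay between 16.6 and 22.3 CPM. Hoxc6 stood out in the same way, with 34.1 CPM in replicate 1 and 15.2 to 19.4 CPM in the rest. Dixon's test at the 95% level marked these 2 of 26 members with a median of at least 1 CPM in this group, the only one with 4 to 10 libraries, and chance marks about 1 in 20.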

How the results depend on the processing

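Counts of called members stayed within 1.5 times under RLE scaling and without the low-count filter in all 9 comparisons. With at least 10 counts in every library, which leaves fewer members tested, 6 were called in the mouse margin layers, 6 in the mouse center layers and 12 in the Acomys layers. Of all genes 4872 of 11802, 6148 of 11284 and 4806 of 9946 were called there. Without the day term the Acomys layers gave 15, where 43.0% of all genes were called. On library size alone PWD14 against PWD21 gave 4, where 54.7% of all genes were called. DESeq2 called 3 in mouse epidermis center against margin, 1 in dermis and 4 in the interaction, against 9.14%, 4.40% and 6.53% of all genes. The edgeR 3 estimate called 2 in the interaction, against 511 of 15531 genes. All 13 mouse libraries in 1 fit called 1 in dermis center against margin, where 151 of 15885 genes were called. All 5 wild-type center libraries gave 1 there and 1 in the interaction, against 323 of 15273 and 512 of 15845 genes. The causes were not tested.

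With 1 library left out, which can leave a group with 1 library whose spread is taken from the other groups, counts ran from 0 to 10 (epidermis center against margin), 0 to 0 (dermis center against margin), 0 to 5 (K14-Cre-Twist1), 10 to 14 (margin layers), 6 to 14 (center layers), 20 to 23 (Acomys layers), 3 to 11 (PWD14 against PWD21), 4 to 14 (PWD21 against PWD0) and 0 to 1 (interaction). The mouse libraries behind these shifts were epidermis margin replicates 1 (also in the interaction) and 2, epidermis center replicates 1 and 2 and K14-Cre-Twist1 replicate 1. The Acomys ones were epidermis PWD21 replicates 1 and 2 and dermis PWD21 replicates 1 and 2. In each of these fits the number of all genes called moved in the same direction as that of the members.

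Log2 changes of members that were not called turned sign in places. In dermis center against margin Hoxa9 went to -0.10 (all 13 libraries) and -0.0635 (all 5 center libraries), and Hoxc6 to -0.0608 (library size), -0.24 (all 13) and -0.20 (all 5). In K14-Cre-Twist1 Hoxd8 went to 0.0169 (RLE), 0.000494 (library size) and 0.0061 (DESeq2), and Hoxa9 to -0.24 in both wider fits. In the interaction with all 5 center libraries Hoxc6 was 0.26 and Hoxb9 0.21. With 1 library left out the ranges that crossed 0 were, in epidermis, Hoxa7 -0.73 to 0.20 and Hoxb9 -0.38 to 0.0524, and in dermis Hoxd8 -0.37 to 0.0439, Hoxc8 -1.42 to 0.16, Hoxa9 -0.28 to 0.83 and Hoxc6 -0.66 to 0.50. They were in K14-Cre-Twist1 Hoxd8 -0.15 to 0.23, Hoxa9 -0.14 to 0.26 and Hoxc8 -0.32 to 0.23, and in the interaction Hoxc8 -0.39 to 1.16, Hoxc6 -0.65 to 1.07 and Hoxb9 -0.82 to 0.79. Of the other values of named members 929 kept direction and side of the threshold, 67 lost and 11 gained a call. No paired analysis was possible because the labels give no replicate numbers that link libraries of different groups. Acomys dermis at PWD0, with 5669760 and 6804714 reads on genes, had the highest floors, up to 0.526 CPM, so members near that level could not be compared there.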
